A study of Homo sapiens with 20 samples.

Results

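MYC, CCND1, CCND3, VEGFA, MCL1, HIF1A and BIRC5 are growth, hypoxia and survival genes whose mRNAs are usual examples of dependence on the cap-binding complex eIF4F. They were chosen as a list of 7 gene IDs out of 19029 in the count tables, and each ID was found in all 4 tables. The symbols are those given with the list, because the tables hold IDs alone. The list calls their leaders structured, which was not checked here, since no leader sequence was used.

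eIF4F joins the cap-binding protein eIF4E, the scaffold eIF4G and the RNA helicase eIF4A, and it recruits the small ribosomal subunit to the 5′ end of an mRNA. A leader with stable secondary structure needs more unwinding before the subunit can scan to the start codon, so mRNAs of this kind are known to be among the first to lose translation when eIF4F is limited. eIF1 sits on the scanning subunit and guards the choice of start codon, eIF2 brings the initiator tRNA, and eIF3 bridges the subunit to eIF4G.

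Footprints of small ribosomal subunits were sequenced from the HEK 293T line, which derives from human embryonic kidney and is labelled WT in every sample. Cells received DMSO, the solvent, or 5 µM of the compound i14G1-12 for 1 h, and the title of the series speaks of an inhibitor of eIF1 and eIF4G1. After formaldehyde crosslinking and RNase digestion, subunits were immunoprecipitated through eIF4G1, eIF3 or an HA tag on eIF1 or on eIF2a, each from DMSO and from i14G1-12 cells. The 20 libraries comprised 3 DMSO and 3 i14G1-12 libraries for eIF1 and for eIF4G1, and 2 and 2 for eIF2a and for eIF3. Each level is relative to all footprints recovered with that factor, with no input library analysed here, so a change in mRNA level and a change in binding cannot be told apart. The labels do not say whether replicates were separate cultures, so the spread behind each p-value is that among libraries and may be technical only. Markers of the cell line were not checked, because the IDs of no gene outside the list were paired with symbols.

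Library totals ran from 10033 to 1161512 counts. The eIF2a DMSO 2 library held 10033 counts (median rho with the other libraries 0.468) and eIF3 DMSO 2 held 59179, and both eIF3 libraries numbered 2 stood apart from the rest (Spearman's rho 0.737 with each other, median 0.598 and 0.62 with all libraries). In eIF4G1 i14G1-12 3, 12568 of 12574 non-zero counts were multiples of 3, those of all 7 genes among them. Among genes with 1, 2 or 3 counts, 1 was the most frequent value in the 8 libraries of eIF2a and eIF3, and 2 or 3 in the 12 of eIF1 and eIF4G1. In eIF4G1 it was 2 in the 3 DMSO libraries and 3 in the 3 i14G1-12 libraries, so this pattern moved with treatment. Its part in the eIF4G1 results was not tested. A fit with the tripled library divided by 3 was run, but scaling to the library total keeps that library's levels nearly unchanged.

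The 7 genes together held 0.0401% to 0.127% of a library's counts. Levels are given as CPM, the count relative to the library total after TMM scaling of all 20 libraries, and between genes as CPM per 1000 nt of the counted sequence. On that scale the mean over 20 libraries was highest for BIRC5, at 73.9 ± 19.6 (SD), followed by MYC at 58.7 ± 20.9 and MCL1 at 42.4 ± 18.7. BIRC5 lay above MYC in 16 of 20 libraries, and 3 of the 4 with MYC above BIRC5 were of eIF4G1. In eIF4G1 i14G1-12 the mean of MYC was the higher, at 95.3 against 76.5 CPM per 1000 nt. MYC lay above MCL1 in 15 and MCL1 above HIF1A in 19. HIF1A followed at 21.4 ± 8.54, VEGFA at 16.2 ± 6.68, CCND1 at 14.4 ± 5.54 and CCND3 at 13.6 ± 8.69 CPM per 1000 nt. Among these last 4 the order changed from library to library, with HIF1A above VEGFA in 13 of 20, VEGFA above CCND1 in 13 and CCND1 above CCND3 in 11, and neighbouring means differed by less than the SD. Of 9426 genes tested over all libraries, BIRC5 stood at percentile 88.7, MYC at 86.3 and MCL1 at 81.2, HIF1A at 65.9, and VEGFA, CCND1 and CCND3 between 51.9 and 57.2.

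**Figure D1:**
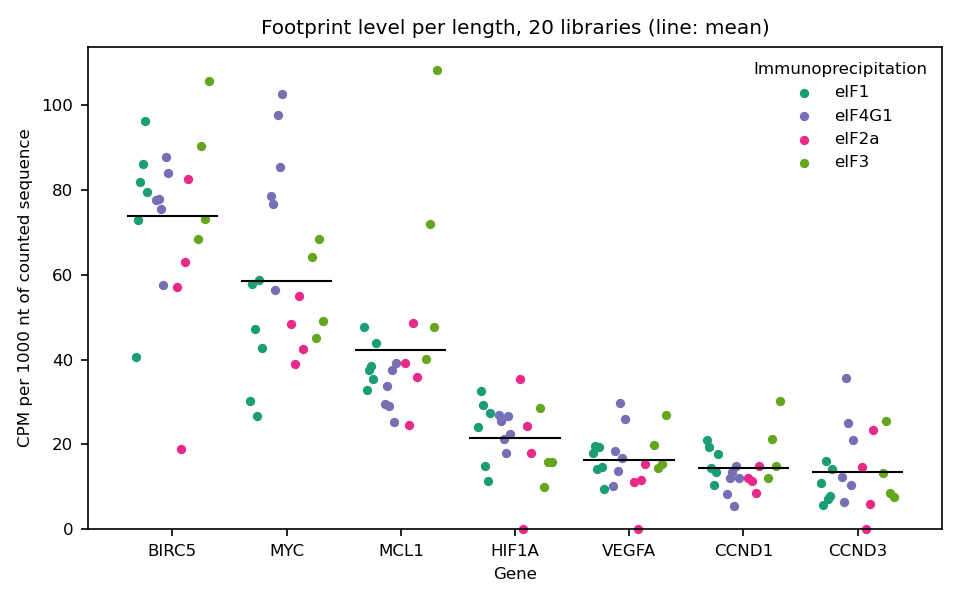
CPM per 1000 nt of counted sequence (vertical axis) for each gene (horizontal axis), 1 point per library coloured by immunoprecipitation, with a line at the mean of 20 libraries. BIRC5, MYC and MCL1 have the highest means (73.9, 58.7 and 42.4), and the points of the other genes overlap.

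The compound was first compared with DMSO in each immunoprecipitation, with edgeR's quasi-likelihood test adjusted over all genes tested. None of the 7 genes passed an adjusted p of 0.05 in any of the 4. In eIF1 complexes 0 of 7 were called, where 0.456% of 8338 genes were, and 1 had an unadjusted p under 0.05, where 12.4% of all genes did. In eIF4G1 complexes 0 of 7 were called against 0.347% of 7203 genes, and 0 had an unadjusted p under 0.05 against 8.65%. In eIF2a complexes 5 of the 7 passed the filter on low counts, and 0 of these were called, as were 0% of 4719 genes, with 0 against 1.84% at an unadjusted p under 0.05. In eIF3 complexes 6 passed the filter and 0 were called, against 0.0159% of 6300 genes, with 0 against 1.75% at an unadjusted p under 0.05. Fewer genes had such a p than expected without any effect, 87 against 236 in eIF2a and 110 against 315 in eIF3. DESeq2 called 0 members in each, and gave no adjusted p for 4 of them in eIF1 and 5 in eIF4G1.

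The median log2 fold change of the genes tested was -0.15 for eIF1, 0.18 for eIF4G1, 0.06 for eIF2a and 0.16 for eIF3, beside medians of 0.00, -0.01, 0.06 and 0.02 over all genes tested. In eIF1 complexes 6 of 7 had a negative log2 fold change, where 49.4% of all genes did, and in eIF4G1 complexes 1 of 7 had one, where 50.4% of all genes did. In eIF2a complexes 1 of 5 had a negative value against 43.4%, and in eIF3 complexes 1 of 6 against 48.5%. These counts rest partly on values near 0, and became 5 of 7 in eIF1 with DESeq2 size factors, which turned MCL1 (0.01), and 3 of 7 in eIF4G1 with total-count scaling, which turned CCND1 (-0.12) and BIRC5 (-0.13). With total-count scaling, under which the median of all genes was -0.13 in eIF1 and -0.16 in eIF4G1, the members' medians became -0.27 and 0.03. Libraries of the groups did not overlap for 0 of 7 genes in eIF1 (18.1% of all genes), 1 of 7 in eIF4G1 (14.1%), 1 of 5 in eIF2a (26.1%) and 0 of 6 in eIF3 (25.3%).

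A single effect of the compound over the 4 immunoprecipitations, fitted to all 20 libraries with the immunoprecipitation as a term, narrowed these values. Of 9426 genes 2.10% were called and 0 of the 7 were. At an unadjusted p under 0.05 there was 1 of 7, HIF1A, where 14.8% of all genes had one. The 7 log2 fold changes lay between -0.43 and 0.29, with 95% intervals whose lower ends ran from -0.84 to -0.09 and upper ends from -0.01 to 0.76. With TMM scaling a log2 fold change below -0.84 therefore lay outside the interval of every one of the 7 genes. This assumes 1 effect in all 4 immunoprecipitations. With total-count scaling, under which the median of all genes was -0.11, HIF1A was at -0.56, so this bound does not carry over to that scaling. The test of a difference in effect between the 4 called none of the 7 (0 called against 0.0212% of genes, and 0 against 1.80% at an unadjusted p under 0.05). Over all genes 170 had such a p, where 471.3 were expected without any effect. The lack of calls therefore does not show that the effects were equal.

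**Figure D2:**
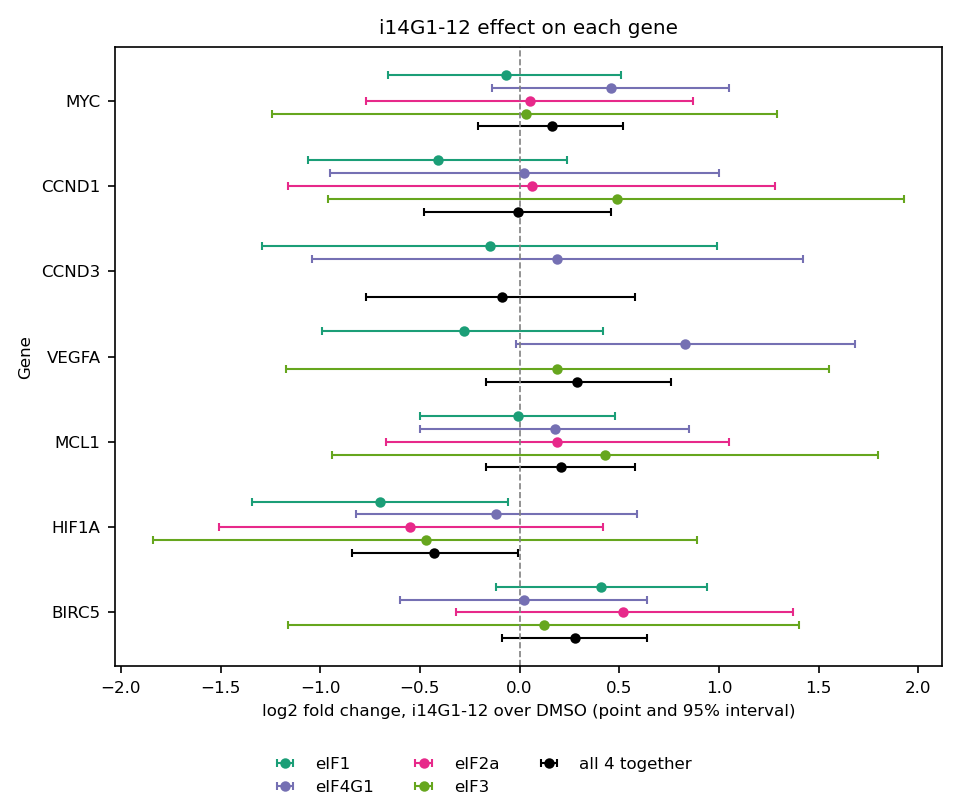
Log2 fold change of i14G1-12 over DMSO (horizontal axis) for each gene (vertical axis) in each immunoprecipitation and in the fit over all 4, with 95% intervals as bars. CCND3 was not tested in eIF2a and eIF3, nor VEGFA in eIF2a. Every interval spans 0 except those of HIF1A in eIF1 (-1.34 to -0.06) and over all 4 (-0.84 to -0.01), which did not pass the adjusted threshold.

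MYC (ENSG00000136997), a transcription factor that drives ribosome production and cell growth, lies on chromosome 8 from 127735434 to 127742951 (GRCh38), and its counted sequence was 3721 nt. In eIF1 complexes it stood at 113, 216 and 175 CPM in DMSO a, b and c and at 99.2, 218 and 159 CPM in i14G1-12 a, b and c. The groups overlapped across their whole range, and the log2 fold change was -0.07 (SE 0.29, 95% interval -0.66 to 0.51, edgeR adjusted p = 0.949). In eIF4G1 complexes MYC was at 292, 286 and 209.7 CPM in DMSO 1, 2 and 3 and at 364, 318 and 382 CPM in i14G1-12 1, 2 and 3. All 3 treated libraries lay above the 3 DMSO libraries, with a log2 fold change of 0.46 (SE 0.29, 95% interval -0.14 to 1.05), and this did not pass (edgeR adjusted p = 0.732). In eIF2a complexes the level was 181 and 145 CPM in DMSO, the second from 3 counts, and 204 and 158 CPM in i14G1-12. In eIF3 complexes it was 239 and 168 CPM in DMSO and 255 and 183 CPM in i14G1-12, so that both libraries numbered 1 were above both numbered 2. MYC had log2 fold changes of 0.05 in eIF2a and 0.03 in eIF3, and of 0.16 over all 4 (SE 0.18, 95% interval -0.21 to 0.52, edgeR adjusted p = 0.757).

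The D-type cyclins activate the kinases that take a cell from G1 into DNA replication. CCND1 (ENSG00000110092), the gene of cyclin D1, lies on chromosome 11 from 69641156 to 69654474 and was counted on 4238 nt, the longest of the 7 sequences. It was at 89.4, 82.3 and 61.3 CPM in eIF1 DMSO and at 43.8, 57.1 and 74.8 CPM in eIF1 i14G1-12. One treated library, c, lay within the DMSO range, and the log2 fold change was -0.41 (SE 0.31, 95% interval -1.06 to 0.24, edgeR adjusted p = 0.636). In eIF4G1 complexes CCND1 was at 34.7, 51.5 and 57.2 CPM in DMSO and at 23.6, 63.2 and 50.8 CPM in i14G1-12, where the treated libraries held both the lowest and the highest value. It was at 51.6 and 48.4 CPM in eIF2a DMSO, the second from 1 count, and at 36.1 and 63.1 CPM in eIF2a i14G1-12. In eIF3 complexes CCND1 was at 50.7 and, from 7 counts, 90.6 CPM in DMSO. It was at 62.9 and 128 CPM in i14G1-12, with the libraries numbered 2 the higher of each group. Its log2 fold change over all 4 was -0.01 (SE 0.24, 95% interval -0.48 to 0.46, edgeR adjusted p = 0.994).

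CCND3 (ENSG00000112576), the gene of cyclin D3, lies on chromosome 6 from 41934933 to 42050035, and RefSeq lists 18 transcripts of it. Counting used 1 sequence of 2026 nt, which was not matched to any of these. It had the fewest reads of the 7, with 249 counts over all libraries. It was at 22.1, 11.6 and 32.8 CPM in eIF1 DMSO and at 14.6, 15.7 and 28.9 CPM in eIF1 i14G1-12. In eIF4G1 complexes it was at 24.8, 12.9 and 72.4 CPM in DMSO and at 50.5, 21.1 and 42.8 CPM in i14G1-12, so 1 DMSO library, number 3, was above every treated one. The log2 fold changes were -0.15 in eIF1 (95% interval -1.29 to 0.99) and 0.19 in eIF4G1 (95% interval -1.04 to 1.42), the widest intervals of the 7 in each. CCND3 did not pass the filter in eIF2a, with 8, 0, 2 and 12 counts in DMSO 1, DMSO 2, i14G1-12 1 and i14G1-12 2. Nor did it in eIF3, where it was at 27.0 and 51.8 CPM in DMSO and at 17.5 and 15.6 CPM in i14G1-12, from 17, 4, 5 and 4 counts. Over all 4 its log2 fold change was -0.09 (95% interval -0.77 to 0.58, edgeR adjusted p = 0.939).

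HIF1A (ENSG00000100644) encodes the oxygen-regulated subunit of the hypoxia factor HIF-1, lies on chromosome 14 from 61695513 to 61748258 and was counted on 3946 nt. In eIF1 complexes it stood at 95.2, 129 and 116 CPM in DMSO and at 58.4, 45.2 and 109 CPM in i14G1-12. Treated libraries a and b lay below all 3 DMSO libraries and c lay within them. The log2 fold change was -0.70 (SE 0.31, 95% interval -1.34 to -0.06, edgeR adjusted p = 0.346), and over the 6 fits that leave out a library it ran from -1.16 to -0.44. In eIF4G1 complexes HIF1A was at 106, 100.3 and 83.9 CPM in DMSO and at 70.7, 105 and 88.2 CPM in i14G1-12, with overlapping groups and a log2 fold change of -0.12 (95% interval -0.82 to 0.59). In eIF2a complexes it was at 140.0 CPM in DMSO 1 and had 0 counts in DMSO 2, which allow up to 145 CPM (the level of 3 counts there), and at 96.2 and 71.0 CPM in i14G1-12. In eIF3 complexes it was at 113 CPM and, from 3 counts, 38.8 CPM in DMSO and at 62.9 and 62.3 CPM in i14G1-12, between the DMSO libraries. The fitted log2 fold changes in eIF2a and eIF3 were -0.55 and -0.47, but without eIF3 DMSO 1 the sign turned in eIF3 (0.53), as it did in eIF2a without DMSO 1, which leaves only the library at 0.

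HIF1A was the gene of the 7 whose fitted log2 fold change was negative in all 4 immunoprecipitations. Over all 4 it was -0.43 (SE 0.21, 95% interval -0.84 to -0.01, edgeR adjusted p = 0.324), rank 1298 of 9426 genes by p. It stayed between -0.53 and -0.34 when each library was left out and was -0.50 without the libraries under 100000 counts. HIF1A therefore had the smallest p of the 7 in this comparison, and it was not distinguished from the spread between libraries after adjustment.

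VEGFA (ENSG00000112715), a secreted growth factor for blood vessels and a known HIF-1 target, lies on chromosome 6 from 43770211 to 43786487. RefSeq lists 20 transcripts of it, and the counted sequence of 3609 nt was not matched to any of these. In eIF4G1 complexes it stood at 36.7, 66.9 and 49.6 CPM in DMSO and at 108, 60.5 and 93.5 CPM in i14G1-12. Treated libraries 1 and 3 lay above all DMSO libraries, and treated library 2 lay within them. The log2 fold change was 0.83 (SE 0.41, 95% interval -0.02 to 1.68, edgeR adjusted p = 0.595), the largest value among the 7. With the tripled library divided by 3 it was 0.83 as well. Scaling to the library total nearly fixes that value in advance, so this fit does not test the tripling. In eIF1 complexes VEGFA was at 65.0, 70.7 and 51.3 CPM in DMSO and at 70.0, 53.1 and 33.8 CPM in i14G1-12, a log2 fold change of -0.28 (SE 0.34, 95% interval -0.99 to 0.42). In eIF2a complexes it did not pass the filter, with 11 and 0 counts in DMSO and 7 and 14 in i14G1-12 (40.5, 0, 42.1 and 55.2 CPM). In eIF3 complexes it was at 71.3 and 51.8 CPM in DMSO and at 55.9 and 97.3 CPM in i14G1-12, so the treated libraries lay on both sides of DMSO 1. Over all 4 the log2 fold change was 0.29 (SE 0.23, 95% interval -0.17 to 0.76, edgeR adjusted p = 0.615).

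The effects in eIF1 and eIF4G1 complexes, the pair named in the series title, were compared directly. None of the 7 passed the test of that difference (0 called against 0.0318% of 9426 genes, and 0 against 3.13% at an unadjusted p under 0.05). VEGFA had the largest difference, at -1.08 (eIF1 minus eIF4G1, SE 0.57, 95% interval -2.21 to 0.06, edgeR adjusted p = 1.000). That of MYC was -0.51 (SE 0.46, 95% interval -1.43 to 0.42) and that of HIF1A -0.55 (SE 0.52, 95% interval -1.60 to 0.50). Each interval spans 0, so differences of that size in either direction were not resolved.

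MCL1 and BIRC5 keep cells alive. MCL1 (ENSG00000143384), a member of the BCL2 family that blocks mitochondrial apoptosis and is turned over quickly, lies on chromosome 1 from 150574558 to 150579610 and was counted on 3950 nt. In eIF1 complexes it was at 188, 129.9 and 148 CPM in DMSO and at 152, 139.7 and 174 CPM in i14G1-12, with all 3 treated libraries inside the DMSO range. Its log2 fold change there was -0.01 (SE 0.24, 95% interval -0.50 to 0.48, edgeR adjusted p = 0.993), the narrowest interval of the 7 in eIF1. In eIF4G1 complexes MCL1 was at 117, 134 and 114 CPM in DMSO and at 148, 100.01 and 155 CPM in i14G1-12, with treated libraries on both sides of DMSO. In eIF2a complexes it was at 155 and 96.8 CPM in DMSO, the second from 2 counts, and at 192 and 142 CPM in i14G1-12. The highest MCL1 levels of all were those of the eIF3 libraries numbered 2, at 285 CPM in DMSO and 428 CPM in i14G1-12, against 158 and 189 CPM in the eIF3 libraries numbered 1. The same 2 libraries held the highest CCND1 values of all 20, at 128 CPM and, from only 7 counts, 90.6 CPM. The second was not resolved from the 89.4 CPM of eIF1 DMSO a. Over all 4 the log2 fold change of MCL1 was 0.21 (SE 0.19, 95% interval -0.17 to 0.58, edgeR adjusted p = 0.673), and it was 0.12 without both of these eIF3 libraries and eIF2a DMSO 2.

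BIRC5 (ENSG00000089685) encodes survivin, which acts in chromosome segregation and inhibits cell death. It lies on chromosome 17 from 78214253 to 78225635 and was counted on 2574 nt. In eIF1 complexes it was at 104, 188 and 211 CPM in DMSO and at 222, 248 and 205 CPM in i14G1-12, where treated library c lay below DMSO c. The log2 fold change was 0.41 (SE 0.26, 95% interval -0.12 to 0.94, edgeR adjusted p = 0.545). In eIF4G1 complexes the DMSO libraries were close together, at 200.2, 201 and 194 CPM, and the treated ones lay on both sides of them, at 148, 226 and 216 CPM. In eIF2a complexes BIRC5 was at 147 CPM and, from 1 count, 48.4 CPM in DMSO and at 162 and 213 CPM in i14G1-12, without overlap. In eIF3 complexes it was at 176 and 233 CPM in DMSO and at 189 and 272 CPM in i14G1-12. BIRC5 had fitted log2 fold changes above 0 in all 4 (0.41, 0.02, 0.52 and 0.12), and over all 4 its value was 0.28 (SE 0.18, 95% interval -0.09 to 0.64, edgeR adjusted p = 0.507). The sign did not hold throughout. In eIF4G1 it turned with scaling to total counts (-0.13), and in eIF3 without eIF3 DMSO 1 (-0.17) or eIF3 i14G1-12 2 (-0.11). In eIF1 the value was 0.14 without eIF1 DMSO a, and in eIF2a 1.61 without eIF2a DMSO 1, which leaves 1 count in DMSO.

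**Figure D3:**
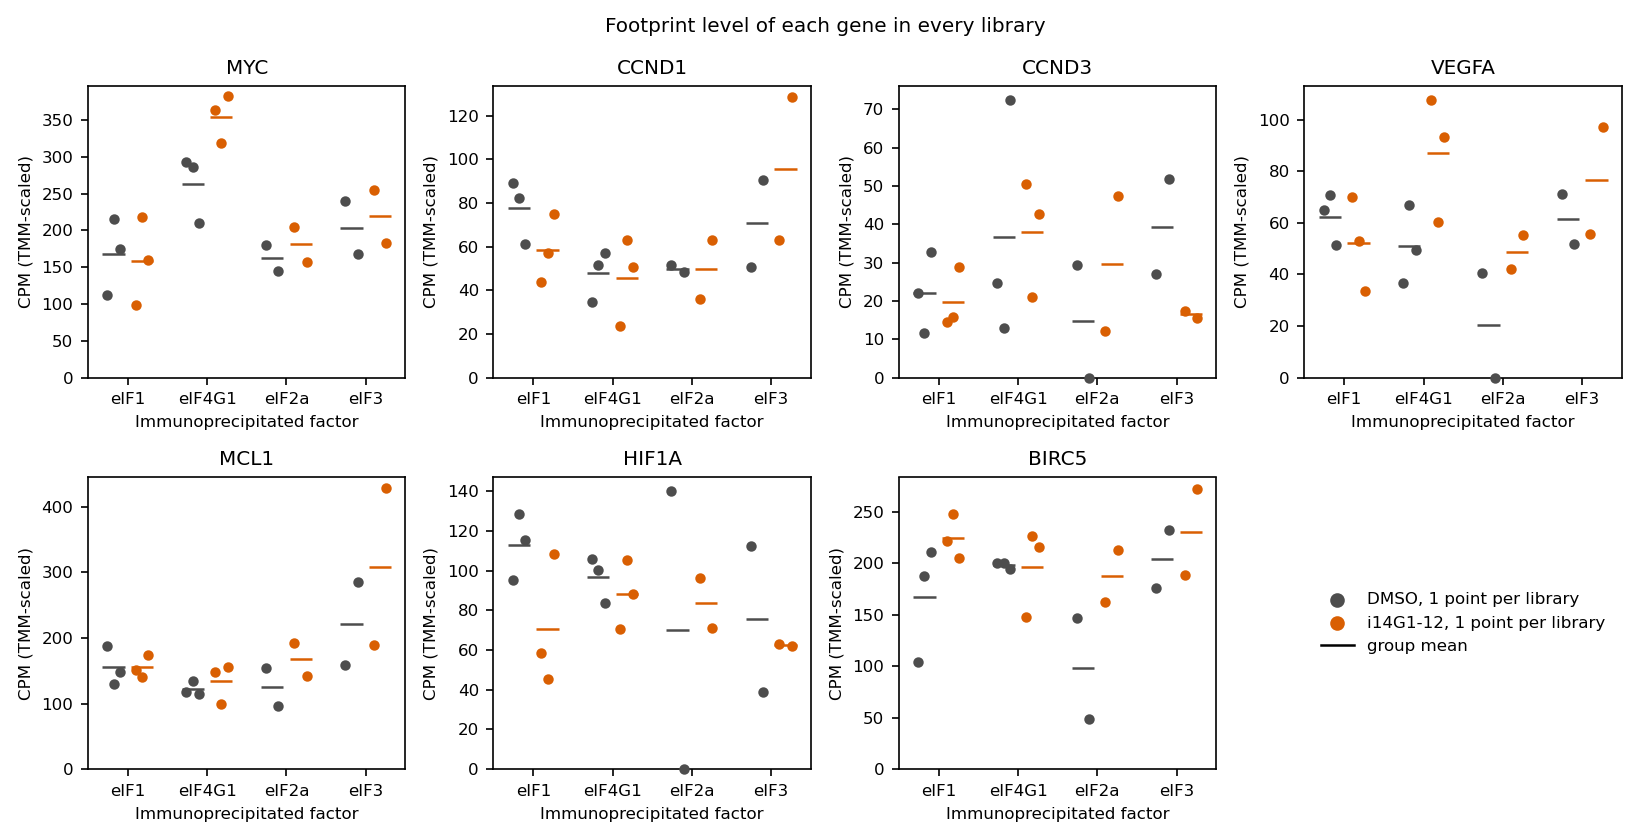
CPM after TMM scaling (vertical axes) of each gene in every library, grouped by immunoprecipitated factor (horizontal axes), with DMSO in grey, i14G1-12 in orange and a line at each group's mean. MYC is highest in the 3 treated eIF4G1 libraries (318 to 382 CPM), and MCL1 and CCND1 are highest in 1 treated eIF3 library (428 and 128 CPM).

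Levels were then compared between eIF1 and eIF4G1 complexes. Factor, antibody, the HA tag and library preparation cannot be told apart in this comparison. The uneven small counts also differed under i14G1-12. Of 1, 2 and 3 counts the most frequent was 2 in the 3 eIF1 libraries and 3 in the 3 eIF4G1 libraries. TMM and total counts gave different baselines, with a median of all genes in DMSO of -0.01 and -0.35. A single gene ID held 5.45% to 16.7% of the counts in the eIF1 libraries, and its part in this shift was not tested. In DMSO 0 of 7 genes were called, against 2.06% of 9426 genes, and 1, MYC, had an unadjusted p under 0.05, against 12.5%. The groups did not overlap for 1 of 7, CCND1, where they did not for 23.1% of all genes. CCND1 was at 77.7 ± 14.6 CPM in eIF1 and 47.8 ± 11.7 in eIF4G1 (SD, 3 libraries each), a log2 difference of 0.75 (SE 0.40, 95% interval -0.06 to 1.56, edgeR adjusted p = 0.459), which was 0.39 with total-count scaling. MYC was at 168 ± 51.9 CPM in eIF1 and 263 ± 45.9 in eIF4G1 (SD, 3 libraries each), a log2 difference of -0.65 (SE 0.33, 95% interval -1.31 to 0.00, edgeR adjusted p = 0.394). The highest eIF1 DMSO library for MYC (216 CPM) lay just above the lowest eIF4G1 DMSO library (209.7 CPM).

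Under i14G1-12 MYC stood at 159 ± 59.6 CPM in eIF1 and 355 ± 32.7 in eIF4G1 complexes (SD, 3 libraries each), and all 3 eIF4G1 libraries lay above all 3 of eIF1. It was the 1 gene of the 7 whose groups did not overlap there, where 19.1% of all genes did not. The log2 difference of eIF1 minus eIF4G1 was -1.16 (SE 0.33, 95% interval -1.83 to -0.50), rank 137 of 9426 genes by p, and just missed the threshold (edgeR adjusted p = 0.0609). Thus 0 of 7 genes were called, against 1.09% of all genes, and 1 had an unadjusted p under 0.05, against 14.5%. DESeq2 called MYC (adjusted p = 0.0253), as did edgeR with a minimum of 30 counts (adjusted p = 0.0366). With scaling to total counts edgeR called it too (adjusted p = 0.0208), at a log2 difference of -1.47. That scaling moved the median of all genes to -0.36, from -0.01 with TMM. edgeR also called MYC without eIF3 DMSO 2, eIF3 i14G1-12 1 or eIF3 i14G1-12 2 (adjusted p = 0.0473, 0.0436 and 0.0419), libraries outside this contrast. Leaving out any library of the contrast itself gave no call (edgeR adjusted p = 0.0545 to 0.431). The largest was without eIF1 i14G1-12 a, where the difference was -0.93. Nor was MYC called without the filter, with DESeq2 size factors or with i14G1-12 libraries only (edgeR adjusted p = 0.0883, 0.051 and 0.0966). With the tripled library divided by 3 it was not called either (edgeR adjusted p = 0.0672). The number of members called stayed at 0 in 21 of 27 alternatives.

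Because the MYC difference had the same sign in both treatments, its mean over DMSO and i14G1-12 was also tested, a contrast added after the single ones were seen. Because it was chosen for what MYC had shown in the same libraries, its p is no further support for that difference. The contrast called 1 of 7 genes, MYC, where 8.34% of 9426 genes were called, and 1 had an unadjusted p under 0.05, where 21.9% of all genes did, so the count of members was near the background. The log2 difference of MYC, eIF1 minus eIF4G1, was -0.91 (SE 0.23, 95% interval -1.37 to -0.44, edgeR adjusted p = 0.00812; DESeq2 adjusted p = 0.00132). The difference ran from -1.08 to -0.80 when each of the 20 libraries was left out, and lost the threshold only without eIF1 DMSO a (edgeR adjusted p = 0.0542). For CCND3 the mean difference was -0.80 (SE 0.42, 95% interval -1.63 to 0.03, edgeR adjusted p = 0.252) and for CCND1 0.53 (SE 0.29, 95% interval -0.05 to 1.11, edgeR adjusted p = 0.278), and these were -1.14 and 0.18 with total-count scaling. MCL1, HIF1A, BIRC5 and VEGFA had mean differences of 0.27, -0.06, -0.04 and -0.22, which were -0.09, -0.40, -0.37 and -0.59 with total-count scaling, under which the median of all genes was -0.36.

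**Figure D4:**
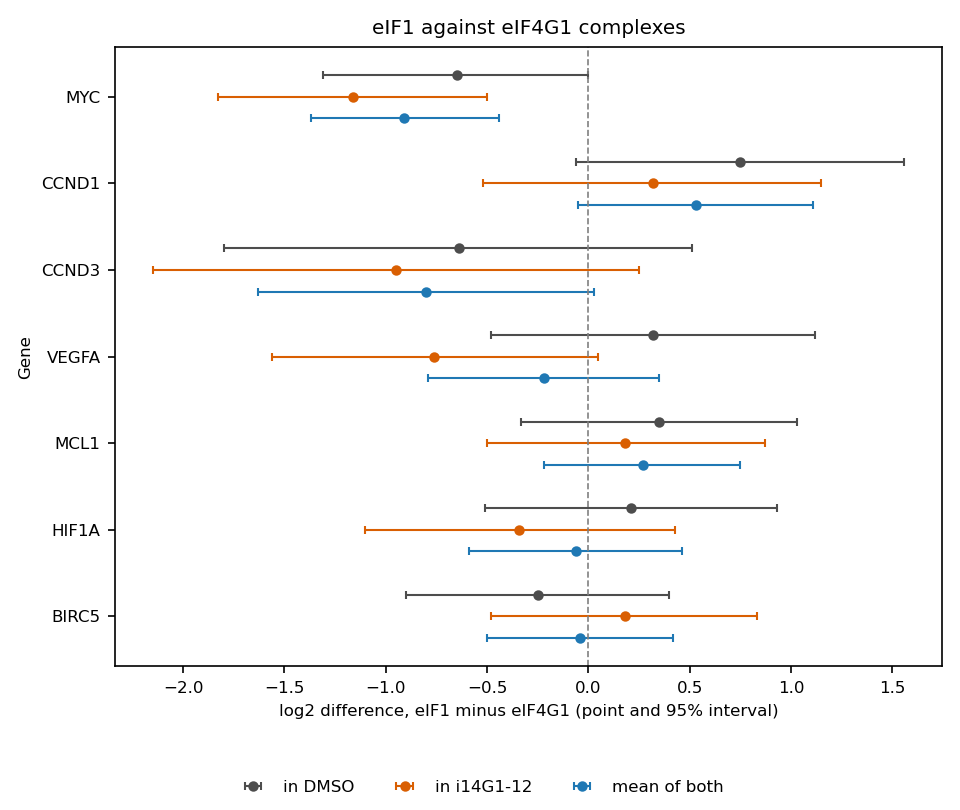
Log2 difference of eIF1 minus eIF4G1 complexes (horizontal axis) for each gene (vertical axis) in DMSO, in i14G1-12 and as the mean of both, with 95% intervals as bars. MYC lies below 0 in all 3 (-0.65, -1.16 and -0.91), and the intervals of the other 6 genes span 0.

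Over all 4 immunoprecipitations in DMSO, where eIF2a and eIF3 each rest on 1 deep and 1 shallow library, the test for any difference in level called 0 of 7 genes, against 2.45% of all genes, and 0 against 10.8% had an unadjusted p under 0.05. The order of MYC means in DMSO was 263 CPM in eIF4G1, 204 ± 50.3 in eIF3, 168 in eIF1 and 163 ± 24.9 in eIF2a (SD, 2 libraries each for eIF3 and eIF2a), and the libraries of neighbours in this order overlapped. In i14G1-12 the order was 355 CPM in eIF4G1, 219 ± 50.9 in eIF3, 181 ± 33.0 in eIF2a and 159 in eIF1. The eIF4G1 libraries there lay above every other library of that treatment. The share of all genes separated in this way was not counted, so this is not shown to be particular to MYC. Over the 8 group means of log2 CPM, the genes outside the list whose pattern was most like that of MYC, out of 4350 with a mean of at least 50 CPM, were ENSG00000113384 (Pearson's r = 0.94) and ENSG00000103319 (0.92). Without the libraries under 100000 counts these values were 0.83 and 0.95. Both genes were picked as the highest of 4350 values over 8 points, and what unrelated genes would reach was not tested.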

How the data were processed

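The authors deposited 4 tables of raw read counts per gene, 1 for each immunoprecipitation. The submitters' processing notes name, without versions, featureCounts, HISAT2, Bowtie, Trimmomatic and cutadapt, and the build hg38. Each gene is its own contig in the file headers, so reads were counted on 1 sequence per gene, and the deposited length column gives that sequence's length. The cyclin D genes are paralogs, and no source used here says how reads with several matches were treated.

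eIF1 columns carry no replicate number of the labels and are called a, b and c. Chi-square over degrees of freedom between replicates ran from 1.34 to 10.2 over 16 pairs. It takes each count as 1 independent read, which the multiples of 3 in eIF4G1 i14G1-12 3 go against. The lowest value was that of eIF2a DMSO, where 1 library held 10033 counts. It therefore does not measure how far replicates differ beyond counting noise. Counts were tested with edgeR 4.0.16 in R 4.3.3 (filterByExpr with a minimum count of 10, TMM, estimateDisp, glmQLFTest), with Benjamini-Hochberg adjustment over all genes tested and a threshold of 0.05. Treatment was tested within each immunoprecipitation, then over all 20 libraries, and contrasts between immunoprecipitations came from 1 fit to 8 group means. The SE was computed as |log2 fold change| divided by √F, and 95% intervals use the fit's degrees of freedom. A floor is 3 counts on the TMM scale and covers counting error only. All 7 members are named, whether or not they pass. For the member with most counts, the 2 genes most like it are named.

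Replicate numbers were not treated as pairs, since the labels state no pairing. Deviations of same-numbered libraries from their group means correlated at 0.00378, -0.091 and -0.135 in eIF4G1, -0.0053 in eIF2a and 0.411 in eIF3. With only 2 numbers the deviations of a group mirror each other, so the eIF2a and eIF3 values cannot decide on pairing. Members, lists and tests were chosen with earlier results of these data known. Lists of other eIF4F-sensitive genes, housekeeping genes and cell markers were not run, because 0 IDs of the reference table could be matched. Gene positions are RefSeq's for GRCh38.p14, matched by symbol. Alternatives were DESeq2 1.42.0 size factors and test, total counts, no filter, a minimum of 30 counts, fewer or more libraries, a replicate block, the tripled library divided by 3 and leaving out each library.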

Additional observations from a re-analysis of the deposited data

How the results depend on the processing

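Of 1603 member values under alternatives, 1596 stayed on their side of the threshold, 6 passed it only under the alternative and 1 lost it, all 7 of them for MYC between eIF1 and eIF4G1 complexes. Under i14G1-12 the number of members called there was 0, and 1 with total counts, with a minimum of 30 counts and by DESeq2, and 0 to 1 leaving out each library. For the mean of both treatments it was 1, and 0 to 1 leaving out each library. For the other 9 comparisons it was 0 in all alternatives run. With the replicate number as a block it was 0 in eIF4G1, eIF2a and eIF3, and same-numbered libraries were not shown to be pairs; over all genes the block moved the calls from 1 to 38 of 6300 in eIF3 and from 25 to 31 of 7203 in eIF4G1, with 0 of 4719 in eIF2a both times. No paired analysis was possible for eIF1 because its columns carry no such number. Added after the data were seen, dividing the tripled library by 3 changed no call, though scaling keeps that library's levels nearly unchanged. Also added then, the comparison over all 4 immunoprecipitations called 0 members without eIF2a DMSO 2, eIF3 DMSO 2 and eIF3 i14G1-12 2. Of 1234 values with a direction, 74 changed sign, none of them called, and their size in the reported fits was at most 0.64. Where a library left out leaves 1 in a group, it is assumed to vary like the rest. SEs of the members' treatment effects ran from 0.24 to 0.55 in eIF1 and 0.29 to 0.60 in eIF4G1, with 3 libraries a group, and from 0.42 to 0.62 in eIF2a and 0.60 to 0.69 in eIF3, with 2. The parts of depth, library number and the eIF3 libraries numbered 2 in these SEs were not tested.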

Other observations

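The count columns of eIF1 and eIF4G1 have an uneven spread of small values that the columns of eIF2a and eIF3 do not have. In eIF4G1 i14G1-12 3 no gene held 1 or 2 counts and 1251 held 3, and 6 of its 12574 non-zero counts were not multiples of 3. In eIF1 DMSO b no gene held 1 count, while 692 held 2 and 697 held 3. In eIF4G1 i14G1-12 1 the numbers of genes at 1, 2 and 3 counts were 1020, 365 and 1160, and in eIF4G1 DMSO 1 they were 527, 694 and 336. In eIF3 DMSO 1, for comparison, they were 1238, 622 and 479. The total of eIF4G1 i14G1-12 3 was 1085854 counts, against 321355 and 401076 in the other i14G1-12 libraries of eIF4G1.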
